A study of Mus musculus with 468 samples.

Results

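Transcripts of 30 peroxisome genes were followed through the adipose tissue of Diversity Outbred (DO) mice. The genes were picked by symbol, with earlier results of these data known. All 30 were found among the 23180 genes of the deposited count table and among the 18380 genes that passed a filter on low counts. They comprise 12 biogenesis factors (the peroxins), 14 enzymes and 4 membrane proteins. DO mice are outbred animals bred from several inbred founder strains, so that nearly every mouse has its own genotype. All DO mice of the study were fed a diet high in fat and sugar, which the labels give as 45 percent fat. They were on it from a young age until they were harvested as adults, and 1 RNA-seq library was made per mouse. The labels name no depot, sex, generation or batch, so all libraries form 1 group with no untreated or lean control.

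Peroxisomes are organelles that take up folded proteins from the cytosol and carry out oxidative lipid chemistry. They shorten very long and branched fatty acids and degrade phytanic acid by alpha-oxidation. They also start the synthesis of ether lipids and break down the hydrogen peroxide that their oxidases release. In fat, peroxisomes are known to be abundant in brown and beige adipocytes, where Ucp1, the mitochondrial uncoupling protein, makes heat. Pparg, the nuclear receptor that drives adipocyte differentiation, and Adgre1, which codes for the macrophage surface protein F4/80, served as the other reference genes. In bulk tissue, fewer cells of a type and less RNA per cell cannot be told apart.

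Most enzymes of the peroxisome matrix are recognised by the receptor PEX5 through their last residues, called peroxisome targeting signal 1. The coding sequences of GENCODE M21 (GRCm38) were searched for an ending of serine, alanine or cysteine, followed by lysine, arginine or histidine, followed by leucine or methionine. This ending was found in 7 of the 30 genes, Ehhadh, Hsd17b4, Scp2, Decr2, Ech1, Crot and Gnpat, and in 0.518% of 21639 coded proteins. The last 30 coding bases are shown for 6 of them and for 3 further enzymes whose endings differ from the pattern at the middle residue, 5′ to 3′ on the coding strand, with the codons of the last 3 residues in capitals and the stop codon after them.
Ehhadh (chr16:21762084-21762113, minus strand, serine-lysine-leucine): ttggcaggaccccatagcAGCAAACTGtga
Ech1 (chr7:28832079-28832108, plus strand, serine-lysine-leucine): acaaaaagcatcaccttcTCCAAGCTCtga
Scp2 (chr4:108044750-108044779, minus strand, alanine-lysine-leucine): cagcttcagccgggcaaaGCTAAGCTGtga
Decr2 (chr17:26082876-26082905, minus strand, alanine-lysine-leucine): gagtttgaatccttctctGCTAAGCTGtag
Gnpat (chr8:124889286-124889315, plus strand, alanine-lysine-leucine): ataggaaaaccagccactGCAAAACTAtaa
Crot (chr5:8966852-8966881, minus strand, alanine-histidine-leucine): atacagctgatgaacaccGCTCATCTTtag
Cat (chr2:103454756-103454785, minus strand, alanine-asparagine-leucine): atggctgcgaagggaaaaGCTAACCTGtaa
Amacr (chr15:10995220-10995249, plus strand, alanine-asparagine-leucine): gaaagtgataagctaaaaGCCAATCTCtga
Acox3 (chr5:35612105-35612134, plus strand, serine-glutamine-leucine): gtagccgacaggctaaagTCCCAGCTGtag

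The receptor PEX7 recognises a different signal near the start of the protein, peroxisome targeting signal 2. The pattern of arginine or lysine, then leucine, valine or isoleucine, then 5 residues of any kind, then histidine or glutamine and leucine, alanine or phenylalanine was found within the first 40 residues of Acaa1a, Phyh and Pex11a, and in 0.915% of the coded proteins. Pex11a is a membrane protein, for which a match is no known signal. The bases of the match are shown for both enzymes, with the codons of the fixed residues in capitals.
Acaa1a (chr9:119341521-119341547, plus strand, from residue 3): CGGCTGcaggtagtgctgggcCACCTG
Phyh (chr2:4919094-4919120, plus strand, from residue 9): CGGCTGcaggtccttctgggaCACCTC

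PPAR receptors bind DNA at DR1 elements, AGGTCA repeated after 1 base of any kind, and the promoters were searched for it because Pparg is a reference gene here. RefSeq promoter windows of 300 bases (GRCm38.p6), 250 before to 50 after the start, were at hand for 24 of the 30 genes, and both strands were read with up to 2 mismatches. Only Cat, 1 of the 24 genes, had a match, upstream of the start, beside 4.40% of 27025 genes with a window. Sites outside the windows were not searched. The match is shown on the strand of the gene, with both repeats in capitals.
Cat promoter (chr2:103485336-103485365, minus strand): actctcagAGGTCAgAGAACAccagcaggg

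The libraries held 35298813 to 137760410 expected counts each, with a median of 82043357, and the lowest level of any of the 30 genes in any library was 1.92 CPM (counts scaled to 1000000 per library), for Pxmp2. They fell into 2 clusters, 48.5% without any count in 4 genes of the Y chromosome and 51.5% with such counts, and Ucp1 had a median of 448.4 CPM in the first and 3.02 CPM in the second. The study used mice of both sexes and adjusted for sex, but the labels give no library's sex, so the clusters are named by these counts; the cluster was kept as a covariate in every fit and no difference of level between the clusters was tested. A set of 23 libraries was left out as a check. It joined the 10 highest in liver transcripts, the 10 highest in skeletal muscle transcripts and the 2 highest in a ribosomal gene. It also held 2 libraries without Y chromosome counts that had little Xist. The set sizes for liver, muscle and the ribosomal gene were fixed, so other libraries with such transcripts stayed in. Mouse DO512, highest in Abcd2, stayed in with 748.5 CPM of summed liver transcripts, against a median of 41.9 CPM. Without the 23 libraries, 25 of the 30 genes rose and 1 fell with Ucp1, 26 rose and 2 fell with Pparg, and 2 rose and 25 fell with Adgre1, against 25 and 1, 27 and 2, and 2 and 25 in all libraries. Among all genes tested without these libraries, 26.8% rose and 36.5% fell with Ucp1, 29.2% and 38.5% with Pparg, and 33.9% and 40.4% with Adgre1. All 14 adipocyte marker genes had a median of at least 1 CPM in both clusters, and their summed level ranged from 14893 to 71714 CPM.

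The import receptors and their docking partners were present in every library. Pex5, the receptor of targeting signal 1, had 53 CPM in the lowest library, a median of 83.2 CPM and 143.5 CPM in the highest of all libraries. Pex7, the receptor of targeting signal 2, ranged from 10.7 to 47 CPM (median 21.8 CPM). Both docking factors at the membrane, Pex13 and Pex14, were also measured in every library. Pex13 ranged from 41.4 to 183.3 CPM (median 105.1 CPM). Pex14 ranged from 28.6 to 78.1 CPM (median 44.7 CPM). Pex2 and Pex10 are ubiquitin ligases that recycle the receptors. Pex2 ranged from 22.1 to 50.2 CPM (median 29.8 CPM) and Pex10 from 4.06 to 16.3 CPM (median 7.15 CPM). Pex6, the ATPase that pulls receptors out of the membrane, ranged from 20.8 to 113.9 CPM (median 42.1 CPM), whereas Pex26, its membrane anchor, ranged only from 9.40 to 23.5 CPM (median 12.7 CPM). Pex19, the chaperone of membrane proteins, ranged from 85.9 to 320.5 CPM (median 196.8 CPM) and had the highest mean per kilobase of exon among the peroxins, 51.99 ± 9.27 CPM (SD). Its partner Pex3 had a median of 43.6 CPM, and Pex16 had a median of 52.1 CPM. Pex11a, which acts in the proliferation of peroxisomes, ranged from 19.7 to 110.7 CPM (median 50.6 CPM).

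The enzymes spread over a wider range. Cat, the catalase that splits hydrogen peroxide, had 244.5 CPM in the lowest library, a median of 968.0 CPM and 3850 CPM in the highest. The highest value belonged to mouse DO349 and the next library had 2167 CPM, so 1 library stood far above the others. Scp2, whose long form is a thiolase for branched chains, ranged from 252.2 to 1361 CPM (median 650.7 CPM) and was also highest in mouse DO349. Per kilobase of annotated exon, Cat had the highest mean of the 30 genes, 390.5 ± 136.6 CPM (mean ± SD over all libraries), followed by Scp2 and then by Ech1 with 152.1 ± 58.5 CPM and Hsd17b4 108.9 ± 23.9 CPM, whereas the lowest value was 1.86 ± 0.43 CPM for Pex7. These exon lengths join all annotated isoforms and can exceed the transcript in use, as in Pex7, Agps and Acox3.

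Ehhadh, a hydratase and dehydrogenase of peroxisomal beta-oxidation, varied the most. It spanned 17.8 to 765.5 CPM, its median being 73.5 CPM, and its 90th percentile was 5.23 times its 10th percentile. The corresponding ratio was 1.74 for Hsd17b4, the other hydratase and dehydrogenase of this pathway (118.5 to 699.5 CPM), 1.84 for the thiolase Acaa1a (38.2 to 144.9 CPM) and 1.36 for Acox3, an acyl-CoA oxidase for branched chains. Acox3 was tight apart from 1 library, mouse DO379, with 290.6 CPM against 99.7 CPM in the next. Among the auxiliary enzymes, the dienoyl-CoA isomerase Ech1 ranged from 146.4 to 959.3 CPM (median 314.5 CPM), the racemase Amacr from 5.92 to 44.3 CPM (median 11.4 CPM), the dienoyl-CoA reductase Decr2 from 7.93 to 58.3 CPM (median 20.1 CPM), and the carnitine octanoyltransferase Crot from 33 to 184.1 CPM (median 57.2 CPM). Phyh, which hydroxylates phytanoyl-CoA in alpha-oxidation, ranged from 53.3 to 454.5 CPM (median 151.97 CPM). Of the ether lipid enzymes, Gnpat (99.9 to 461.2 CPM) starts the pathway, Agps (38.2 to 83.8 CPM) exchanges the acyl chain for an alcohol, and Far1 (20.2 to 111.96 CPM) makes that fatty alcohol. Of the transporters of fatty acyl-CoA, Abcd2 ranged from 146.7 to 1037 CPM (median 535.6 CPM) and Abcd3 from 68.7 to 517.5 CPM (median 107.4 CPM). The channel protein Pxmp2 ranged from 1.92 to 30.5 CPM (median 10.2 CPM) and the membrane protein Pxmp4 from 26.2 to 127.9 CPM (median 69.3 CPM).

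**Figure D1:**
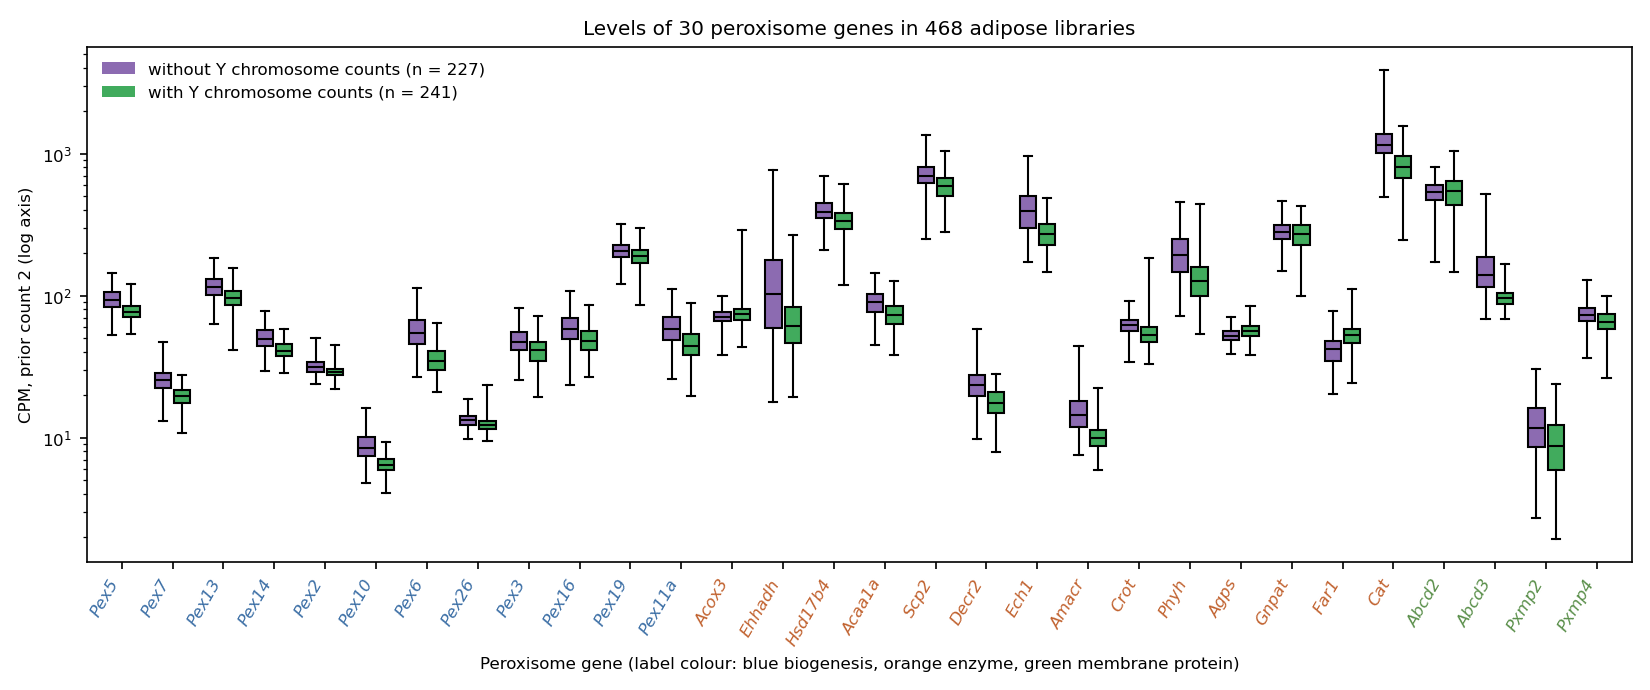
CPM of the 30 genes on a log axis, with boxes from the first to the third quartile, the median as a line and whiskers to the lowest and highest library, for libraries without and with Y chromosome counts. Ehhadh has a wide range, from 17.8 to 765.5 CPM; the clusters overlap in every gene.

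Several genes peaked in the same animals. Mouse DO237 held the highest value of 6 genes, Pex10, Hsd17b4, Ech1, Amacr, Phyh and Abcd3, and its Ucp1 level was 3119 CPM. Its Pparg level was 297.4 CPM (median of all libraries 140.6 CPM) and its Adgre1 level 15.9 CPM (median 47.5 CPM). How many of all genes peaked in this mouse was not counted. Mouse DO330, with the highest Ucp1 of all libraries (4585 CPM), was highest in Ehhadh and Pex7. Mouse DO349, highest in Cat and Scp2, had 1.28 CPM of Ucp1. Between the clusters, 26 of the 30 genes had a higher median in libraries without Y chromosome counts, all 12 biogenesis factors among them, beside 49.9% of all genes that passed the filter. The ratio of the medians was highest in Ehhadh, at 1.66, and lowest in Far1, at 0.796. Far1, Agps, Acox3 and Abcd2 had the higher median in libraries with Y chromosome counts. In no gene did the clusters separate fully.

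The biological coefficient of variation, which edgeR estimates after counting error is taken out, had a median of 0.183 over the 12 biogenesis factors and 0.232 over the 14 enzymes. It was 0.175 over the 9508 genes that averaged 10 CPM or more and 0.403 over 16 genes of mitochondrial fatty acid oxidation. The lowest values were 0.107 in Pex26 and 0.116 in Pex2, and the highest were 0.598 in Ehhadh and 0.456 in Pxmp2. Biogenesis factors thus ranged from 0.107 to 0.258, and enzymes from 0.119 in Agps to 0.598 in Ehhadh.

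Biogenesis factors moved together across the mice. With the cluster means removed from log2 CPM, the median Pearson r was 0.506 over 66 pairs of biogenesis factors, 0.285 over 91 pairs of enzymes and 0.348 over the pairs of a biogenesis factor with an enzyme. The median r was -0.0015 over all pairs of 2000 genes spaced evenly through the tested genes. These values are descriptions over all libraries, which share their scaling, with no test. Genes outside the peroxisome lists moved with these genes too, as given further below. All 66 pairs of biogenesis factors had a positive r, as had 66 of the 91 pairs of enzymes. In libraries with Y chromosome counts alone the medians were lower, at 0.300, 0.094 and 0.259, and 55 of the 66 biogenesis pairs were positive; in those without, they were 0.631, 0.407 and 0.488.

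The wider spread of the enzymes came with a few of them. Far1 had a negative r with 27 of the other 29 genes, down to -0.698 with Pex6, and its nearest gene was Agps (r = 0.411). Agps had a median r of -0.079 with the others, and Crot one of 0.049. Within ether lipid synthesis, Gnpat had r of -0.436 with Far1 and -0.079 with Agps, and its nearest gene was Hsd17b4 (r = 0.703). By contrast, Scp2 had a median r of 0.620 with the biogenesis factors, and the enzyme pairs Ech1 with Phyh (r = 0.796) and Ech1 with Amacr (r = 0.795) lay close to each other. Hsd17b4 was nearest to the docking factor Pex13 (r = 0.788), and Pex5 to Pex13 (r = 0.779). Pex26 stood apart from the other peroxins, with a median r of 0.118 to them.

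**Figure D2:**
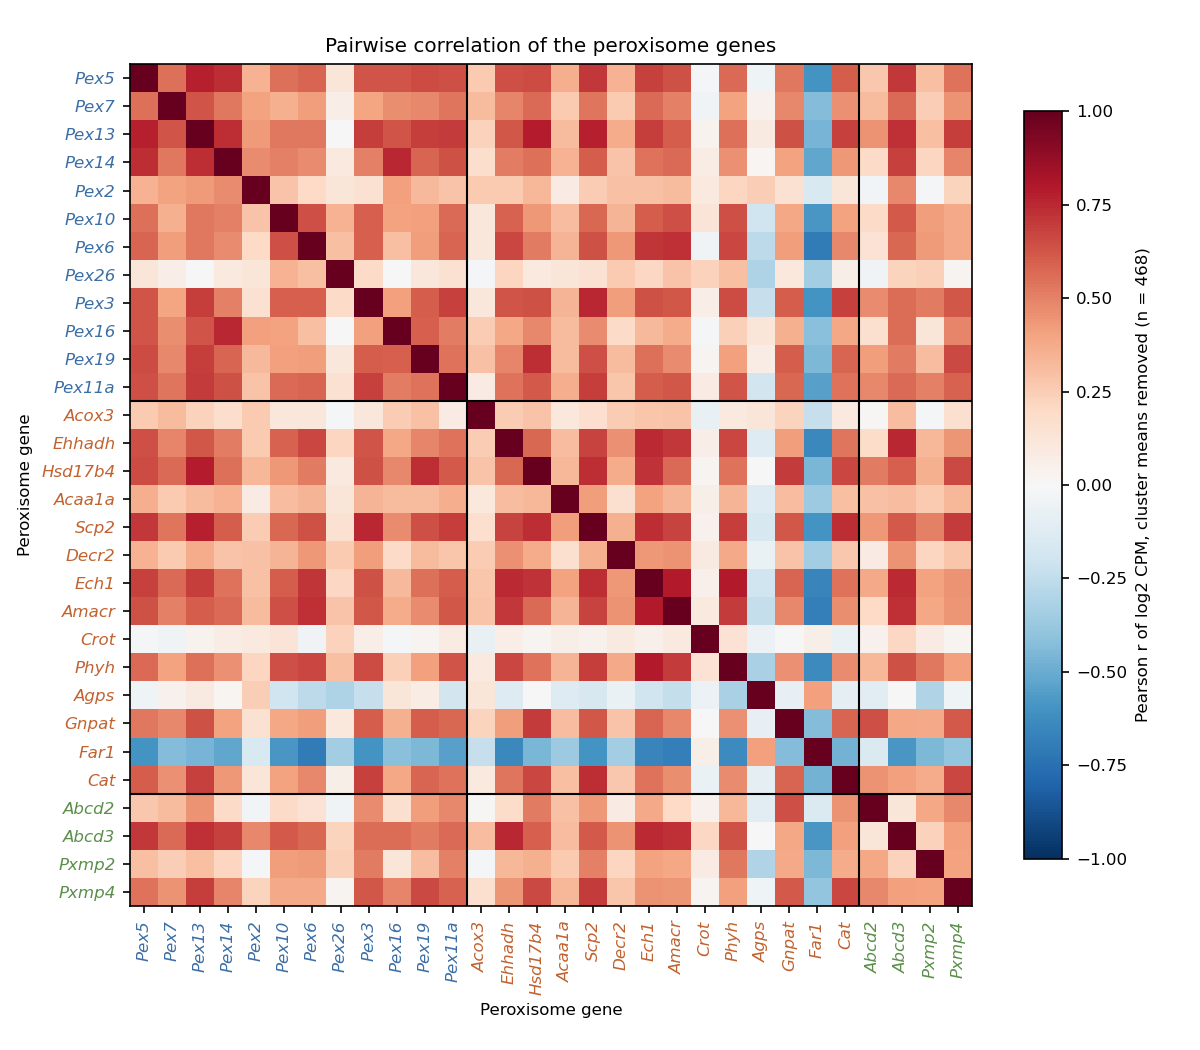
Pearson r between each pair of the 30 genes over all libraries, on log2 CPM with the cluster means removed, in the order of roles, with lines between biogenesis factors, enzymes and membrane proteins. The block of biogenesis factors is positive throughout (median r of 0.506), while Far1 forms a band of negative values and Agps and Crot bands near 0.

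The next question was how these genes related to Ucp1. Each slope below is the change of a gene, in log2 units, per SD of the marker, and it came from edgeR's quasi-likelihood test over all genes with the cluster as a covariate; the SD was 2.45 log2 units for Ucp1. Of the 30 genes, 25 rose with Ucp1 and 1 fell, at a Benjamini-Hochberg adjusted p under 0.05. Over the 18379 genes tested, 26.6% rose and 36.7% fell. All 12 biogenesis factors rose, with a median slope of 0.11, as did 11 of the 14 enzymes (median 0.089) and 2 of the 4 membrane proteins (median 0.036), beside a median of -0.015 over all genes tested.

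Ehhadh, Abcd3, Ech1, Phyh and Amacr had the steepest slopes on Ucp1. Ehhadh had a slope of 0.44 ± 0.036 (SE), or 35.8% per SD (adjusted p = 3.3e-29, edgeR). Abcd3, which carries long and branched acyl-CoA into the peroxisome, had 0.27 ± 0.015 (adjusted p = 4.6e-50), and Ech1 had 0.26 ± 0.016 (adjusted p = 2.9e-46). Phyh and Amacr, which both prepare branched chains for oxidation, followed with 0.24 ± 0.022 and 0.19 ± 0.015. The slopes of the biogenesis factors ran from 0.022 ± 0.0073 in Pex26 to 0.16 ± 0.015 in Pex6. Cat had 0.051 ± 0.018 (adjusted p = 0.0084), the lowest slope of any enzyme that rose. Far1 was the gene that fell, by 0.11 log2 units per SD (SE 0.013, adjusted p = 1.1e-15). Crot, Agps, Abcd2 and Pxmp2 did not pass, with slopes of 0.0071 ± 0.017, 0.0084 ± 0.0079, -0.016 ± 0.018 and 0.046 ± 0.033.

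The relation to Ucp1 lay mostly in the libraries without Y chromosome counts. Fitted there alone, 27 genes rose and 1 fell (all genes tested: 29.6% and 40.2%), and in libraries with Y chromosome counts 7 rose and 1 fell (all genes tested: 11.9% and 7.89%). The genes that rose in the second were Pex5, Pex13, Pex14, Pex16, Ehhadh, Agps and Abcd3, and Crot fell. The slopes differed between the clusters in 26 genes by a test of the interaction, lower with Y chromosome counts in 24 and higher in 2; over all genes tested, 24.4% were lower and 27.4% higher. Ucp1 counts were much lower in these libraries, with a minimum of 4 counts per library against 21, and medians of 3.02 and 448.4 CPM, and the part of that difference in the slopes was not tested. Ech1 had r = 0.854 (rho = 0.927) with Ucp1 over the libraries without Y chromosome counts, with permutation p = 1e-05 for both, the smallest that 100000 permutations can give, and an adjusted p of 2.4e-05 for r. Without the 2 libraries farthest from the median of Ucp1 it was 0.865. Over the libraries with Y chromosome counts r was 0.139 (rho = 0.131, permutation p = 0.032 and 0.041, adjusted p = 0.12 and 0.14). Among the 30 genes r with Ucp1 ran from -0.566 (Far1) to 0.854 without Y chromosome counts and from -0.167 (Pxmp2) to 0.358 (Pex16) with them.

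With Pparg, 27 of the 30 genes rose and 2 fell (29.5% and 38.6% of all genes tested). The SD of Pparg was 0.34 log2 units, so these slopes cover a far smaller change of the marker than those on Ucp1. The 12 biogenesis factors had a median slope of 0.13 with 11 rising, the 14 enzymes 0.15 with 12 rising, and the 4 membrane proteins 0.14 with all rising, beside -0.012 over all genes tested. Pex13 (0.17 ± 0.010, adjusted p = 6.7e-46, edgeR) and Pex14 (0.14 ± 0.0085, adjusted p = 8.0e-44), the docking pair, had the smallest p-values, and Pex11a had 0.18 ± 0.015. Ehhadh again had the steepest slope, 0.32 ± 0.038. Gnpat (0.16 ± 0.013), Cat (0.15 ± 0.017) and Abcd2 (0.14 ± 0.017) had higher slopes per SD on Pparg than on Ucp1, where Abcd2 did not pass (-0.016 ± 0.018). Others of the 30 genes, Pex13, Pex11a, Pex19 and Pxmp4 among them, had the higher slope on Pparg too. Ehhadh, Ech1, Abcd3, Phyh and Amacr had the higher slope on Ucp1. The differences between markers were not tested. Cat is the gene with the DR1 match shown above, and its slope was near the median of the enzymes. Any link between the match and the slope was not tested. Far1 fell by 0.10 (SE 0.013) and Crot by 0.042 (SE 0.016, adjusted p = 0.016), and Pex26 did not pass (0.0042 ± 0.0072).

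The relation to Pparg was seen in both clusters. Without Y chromosome counts 27 genes rose and 1 fell (all genes tested: 29.4% and 36.9%), and with them 22 rose and 1 fell (all genes tested: 23.2% and 28.3%). The slopes differed between the clusters in 19 genes, lower with Y chromosome counts in 17 and higher in 2 (all genes tested: 24.9% lower and 20.9% higher). Pex13 had r = 0.704 (rho = 0.601) with Pparg without Y chromosome counts and r = 0.523 (rho = 0.438) with them, each with a permutation p of 1e-05, the smallest possible, and adjusted p-values of at most 7.9e-05. Without the 2 farthest libraries these r were 0.681 and 0.460. Crot went opposite ways, rising by 0.076 ± 0.013 in the first cluster and falling by 0.16 (SE 0.027) in the second.

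With Adgre1 the signs turned. Of the 30 genes, 25 fell and 2 rose (40.8% and 33.8% of all genes tested), with a median slope of -0.11 beside -0.012 over all genes tested; the SD of Adgre1 was 0.81 log2 units. Phyh fell by 0.34 (SE 0.018, adjusted p = 4.4e-57, edgeR), Pxmp2 by 0.34 (SE 0.027) and Ehhadh by 0.40 (SE 0.036). Among biogenesis factors Pex11a fell by 0.20 (SE 0.015) and Pex3 by 0.20 (SE 0.012, adjusted p = 3.3e-46), and 10 of the 12 fell in all. Pex2 (-0.0029 ± 0.0077), Pex16 (-0.026 ± 0.016) and Acox3 (-0.0070 ± 0.010) did not pass. Both genes that rose make ether lipid precursors: Far1 rose by 0.15 ± 0.012 (adjusted p = 4.4e-30) and Agps by 0.082 ± 0.0069 (adjusted p = 1.6e-27), whereas Gnpat, the first enzyme of that pathway, fell by 0.12 (SE 0.014).

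Markers of other cells moved with Adgre1. All 13 other macrophage markers rose with it (median slope 0.53), and 13 of 14 adipocyte markers fell (median slope -0.24). The mean z-score of the adipocyte markers had r = -0.466 with Adgre1 in libraries without and r = -0.690 in libraries with Y chromosome counts. With that score in the fit, 14 genes fell and 8 rose with Adgre1, near the shares of all genes tested (38.4% and 30.6%), and Abcd2 (0.059 ± 0.014), Gnpat (0.039 ± 0.013), Pxmp4 (0.032 ± 0.011), Hsd17b4 (0.031 ± 0.013), Pex16 (0.049 ± 0.020) and Pex19 (0.027 ± 0.013) were then among those that rose. In the same fit 23 genes rose and 2 fell with Ucp1 (26.1% and 35.3% of all genes tested), and 22 rose and 2 fell with Pparg (27.4% and 31.5%).

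The clusters differed in some of these slopes. Without Y chromosome counts 27 genes fell and 1 rose (all genes tested: 31.7% and 32.1%), and with them 23 fell and 4 rose (all genes tested: 39.3% and 33%). The slopes differed between the clusters in 20 genes, higher with Y chromosome counts in 18 and lower in 2 (all genes tested: 24.8% higher and 25.9% lower). Phyh had r = -0.612 (rho = -0.603) with Adgre1 without Y chromosome counts and r = -0.708 (rho = -0.706) with them, each with the smallest permutation p of 1e-05 and adjusted p-values of at most 2.9e-05; without the 2 farthest libraries these were -0.617 and -0.695. Agps had r = 0.096 (rho = 0.062, permutation p = 0.15 and 0.35, adjusted p = 0.20 and 0.41) without and r = 0.661 (rho = 0.655, permutation p = 1e-05) with Y chromosome counts, and 0.097 and 0.649 without the 2 farthest libraries. Abcd2 had r = 0.021 (rho = 0.080, permutation p = 0.75 and 0.23, adjusted p = 0.80 and 0.29) and r = -0.591 (rho = -0.581, permutation p = 1e-05) in the same order, and 0.083 and -0.561 without the 2 farthest libraries.

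**Figure D3:**
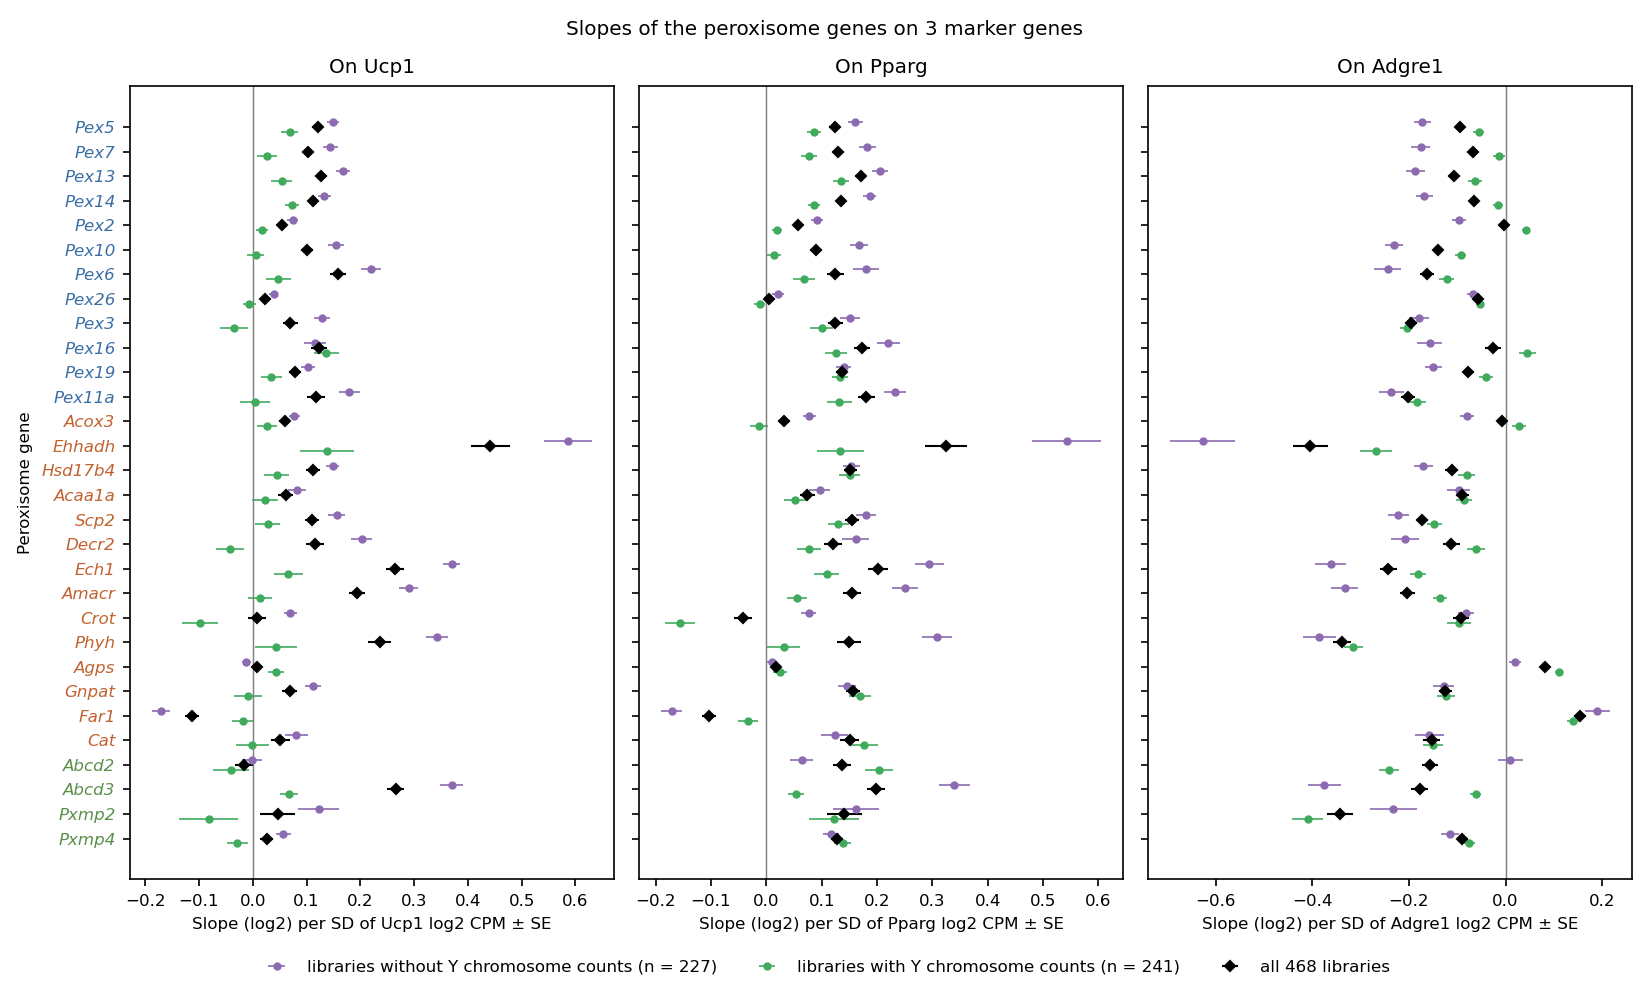
Slope of each of the 30 genes on Ucp1, Pparg and Adgre1 in log2 units per SD of the marker, with SE bars, over all libraries (black diamonds) and in the libraries without (purple) and with (green) Y chromosome counts. Most genes lie to the right of 0 for Ucp1 and Pparg and to the left for Adgre1, and Far1 lies opposite to them in all panels. The green points for Ucp1 run from -0.098 (Crot) to 0.14 (Ehhadh and Pex16).

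**Figure D4:**
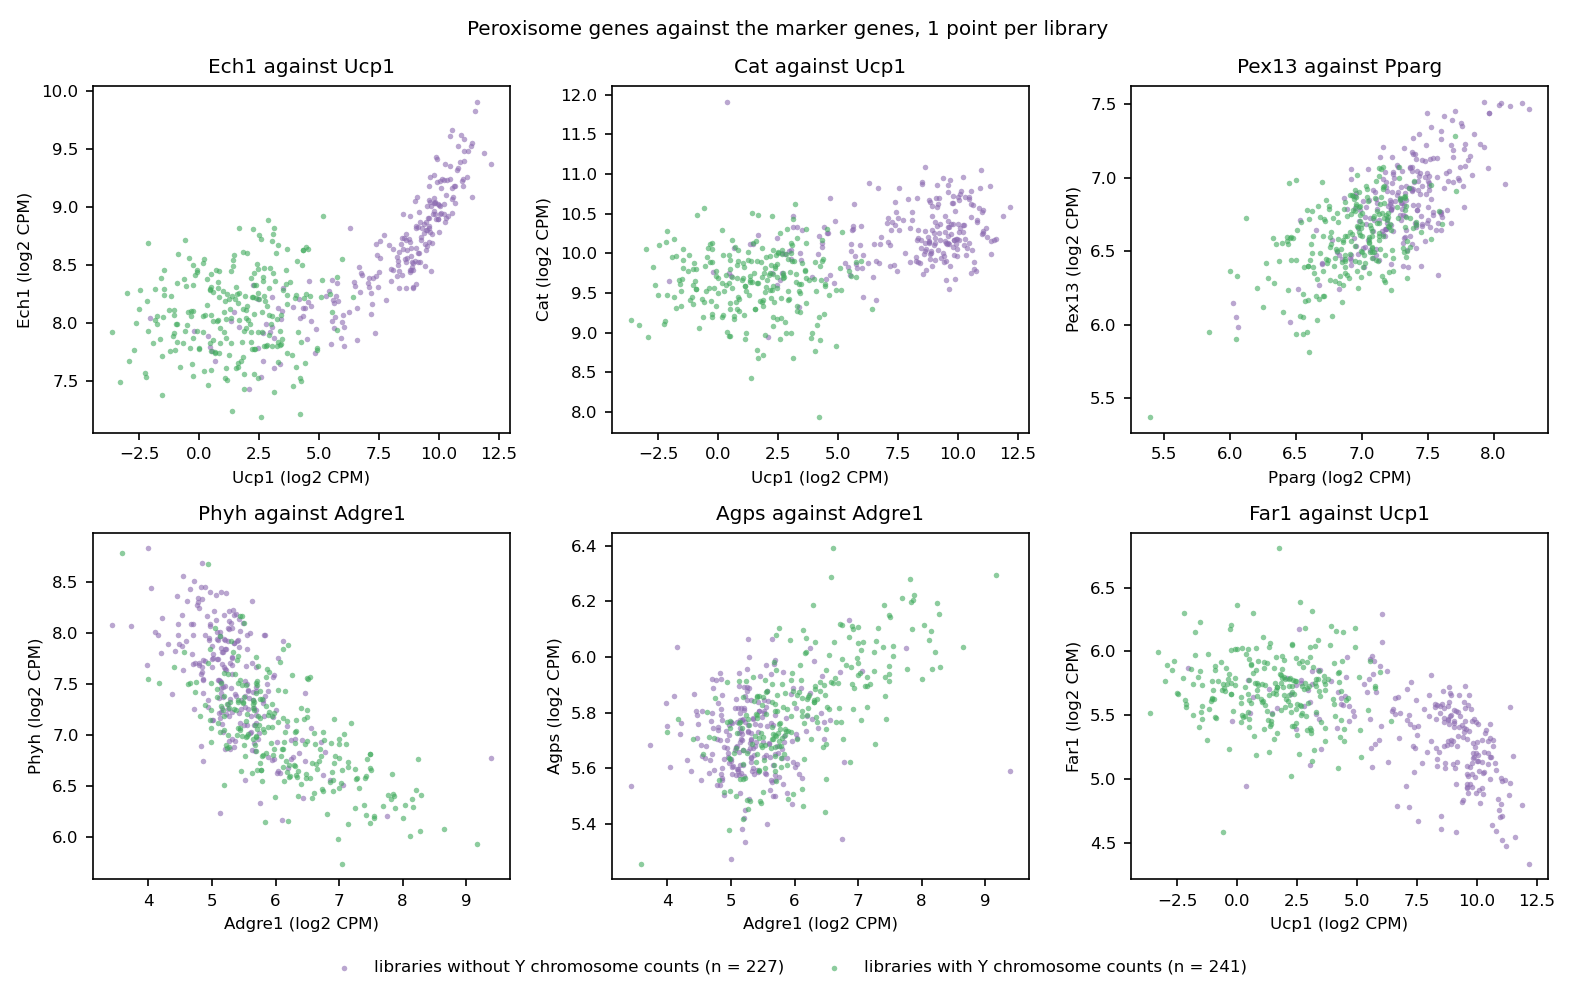
Log2 CPM of Ech1, Cat, Pex13, Phyh, Agps and Far1 against a marker, 1 point per library, coloured by cluster. The pairs were chosen after their values were seen. Ech1 climbs with Ucp1 among libraries without Y chromosome counts (r = 0.854), Agps climbs with Adgre1 among libraries with them (r = 0.661), and 1 library lies far above the others in Cat.

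The markers were themselves related. In libraries without Y chromosome counts Ucp1 had r = 0.495 with Pparg and r = -0.534 with Adgre1, and in those with Y chromosome counts these were 0.072 and 0.193. With all markers in the same fit, 21 genes rose and 2 fell with Ucp1 (23.7% and 28% of all genes tested), 26 rose and 2 fell with Pparg (28.7% and 32.6%), and 2 rose and 25 fell with Adgre1 (33.6% and 41.3%). The 11 biogenesis factors other than Pex3 kept a rise with Ucp1 in that fit (Pex3 had 0.016 ± 0.012). Cat had a slope of 0.00093 ± 0.017 on Ucp1 beside the other markers, and Abcd2 then fell by 0.079 (SE 0.016) with Ucp1. Far1 still fell with Ucp1 and with Pparg and rose with Adgre1, by 0.13 ± 0.012.

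Few of these genes passed the test on mouse number or library number. Mouse number, the only label that could follow generation, gave 1 of the 30 genes that rose (Pex2, 0.015 ± 0.0051 per 100 mice, adjusted p = 0.028, edgeR) and 0 that fell, against 5.38% rising and 8.23% falling among all genes tested. Library number gave 1 that fell (Decr2, by 0.049 per 100 libraries, SE 0.012, adjusted p = 0.032) and 0 that rose, against 0.131% falling and 0.18% rising. At an unadjusted p under 0.05, 2 genes rose and 1 fell with mouse number and 0 rose and 6 fell with library number (Pex6, Pex26, Decr2, Amacr, Crot and Abcd3). Among all genes tested 11.4% rose and 15% fell with mouse number and 4.46% rose and 6.03% fell with library number at that level, so the 6 falls with library number are a larger share than among all genes. Some of the 6 genes moved together (Amacr had r = 0.733 with Pex6 and 0.731 with Abcd3), so their falls are not separate observations. The share was not tested. For adjusted calls DESeq2 gave the same counts as edgeR, 1 and 0, and 0 and 1. Within 5 blocks of library numbers and 5 of mouse numbers, each with 93 or 94 libraries, r with the marker (cluster means removed) kept its sign in every block for at least 23 of the 30 genes with Ucp1, 26 with Pparg and 27 with Adgre1.

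A further 56 genes listed as related to the peroxisome passed the filter, of 61 listed. Whether their products act only there was not checked. With Ucp1 36 rose and 5 fell, with Pparg 44 rose and 5 fell, and with Adgre1 6 rose and 43 fell, beside 26.6% and 36.7%, 29.5% and 38.6%, and 33.8% and 40.8% of all genes tested. Their median slopes were 0.075, 0.10 and -0.10. The steepest rises with Ucp1 were those of the fatty acid transporter Slc27a2 (0.62 ± 0.10) and the aspartate oxidase Ddo (0.45 ± 0.032), and the steepest falls those of Pex5l (-0.42 ± 0.061) and Acoxl (-0.18 ± 0.058), which had means of 3.86 and 1.41 CPM. With Pparg, the thioesterases Acot3 (0.60 ± 0.088) and Acot4 (0.32 ± 0.039) rose most. Pipox (-0.31 ± 0.099) and the urate oxidase Uox (-0.24 ± 0.10) fell most. Their levels were low and uneven, with means of 1.94 CPM (SD 3.37) for Pipox and 2.36 CPM (SD 6.37) for Uox. With Adgre1, Acot3 (-1.0 ± 0.087, mean 0.537 CPM) and Slc27a2 (-0.58 ± 0.088) fell most, and Acoxl (0.57 ± 0.058) and Pex5l (0.46 ± 0.065) rose most. The 16 genes of mitochondrial fatty acid oxidation had median slopes of 0.40 on Ucp1, 0.27 on Pparg and -0.23 on Adgre1, steeper than the medians of 0.10, 0.14 and -0.11 over the 30 peroxisome genes; the difference was not tested.

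Genes outside the peroxisome lists were ranked by their likeness to the 30. The mean z-score of the biogenesis factors was most like Mtch2 (r = 0.902), Sgta (r = 0.880), Timm50 (r = 0.879), Chchd3 (r = 0.874) and Taldo1 (r = 0.873) among those that averaged 10 CPM or more. The mean z-score of the enzymes was most like Etfa (r = 0.888), Mfn2 (r = 0.858), Immt (r = 0.856), Apool (r = 0.855) and Coq9 (r = 0.852). These r were taken over all libraries with the cluster means removed, as descriptions with no test. Both scores had r = 0.841 with each other, and 0.506 and 0.504 with Ucp1, 0.614 and 0.540 with Pparg, and -0.477 and -0.489 with Adgre1, biogenesis first. The mean z-score of the mitochondrial fatty acid oxidation genes was as close to the biogenesis score, with r = 0.823 in libraries without and 0.821 with Y chromosome counts. With the enzyme score its r was 0.887 and 0.761, in the same order of libraries.

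Some counts are uncertain. Scp2 overlaps the protein-coding gene Podn on the same strand. Pex3, Pex13, Pex16, Gnpat and Acaa1a overlap protein-coding genes on the opposite strand, and Pex13 and Scp2 have named pseudogenes, so that reads may have been divided between them. The 30 genes had the same positions in the deposited table as in GENCODE M21, for example Ehhadh at chr16:21761287-21787807, Cat at chr2:103453849-103485160 and Far1 at chr7:113513834-113571511 (GRCm38).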

How the data were processed

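Adipose RNA of DO mice was measured by RNA-seq, 1 library per mouse. Per the study's methods, the authors estimated read abundance by expectation maximization (EMASE, GBRS) after aligning both ends of each pair as single ends to a transcriptome of all founder strains; the sources used here do not state strand use. The submitters' processing notes name GRCm38 and DESeq2. The authors deposited expected counts for each gene, and 66.8% of the values were whole within 1e-06. The authors also deposited log2-scale values of DESeq2's variance stabilizing transformation (VST), used here as an alternative. Division of shared reads makes overlapping genes and pseudogene copies uncertain, and a pair can give a count from each end.

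Expected counts were rounded for the models. Genes with at least 10 counts in at least 50% of libraries were kept (18380 of 23180). CPM used TMM factors (0.581 to 1.37), and log2 CPM a prior count of 2. Slopes on each marker (log2 CPM) came from edgeR 4.0.16 (quasi-likelihood, R 4.3.3) with an indicator of counts in Ddx3y, Eif2s3y, Kdm5d or Uty as covariate, and slopes on mouse and library number from a fit with both; p-values were Benjamini-Hochberg adjusted over all genes tested, and calls use 0.05. The marker was left out of its own test. Within clusters, Pearson's r and Spearman's rho had two-sided permutation tests (100000 resamples), adjusted over all genes. Medians of pairwise r, z-score means and levels per kilobase are descriptions. Both tests were tested on simulated data. Alternatives used DESeq2 1.42.0 and limma 3.58.1. The interaction of marker and cluster, the fits without the set of 23 libraries and the split by Ucp1 level were chosen after seeing the data.

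The 30 genes and all lists were chosen with earlier results of these data known. Besides the 30 genes and 3 markers, the text names the 2 steepest slopes each way among other peroxisome genes per marker and the 5 genes most like each z-score mean. Mice are separate animals, but each has 1 library, so the spread joins animals and assay. Genotypes and traits were not analysed here.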

Additional observations from a re-analysis of the deposited data

Results flagged for a closer look

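The slopes of the 30 genes differed between libraries without and with Y chromosome counts by a test of the interaction (edgeR, adjusted over all genes) in 26 genes for Ucp1, 19 for Pparg and 20 for Adgre1. The clusters come from the data and not from the labels, and among all genes tested the slope was lower with Y chromosome counts in 24.4% and higher in 27.4% for Ucp1, 24.9% and 20.9% for Pparg, and 25.9% and 24.8% for Adgre1.

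In 4 relations a gene passed in both clusters with opposite signs. Crot rose with Ucp1 without Y chromosome counts (0.070 ± 0.012, SE) and fell with them (-0.098 ± 0.033), a difference of -0.17. Crot did the same with Pparg (0.076 ± 0.013 and -0.16 ± 0.027, a difference of -0.23). Pex2, a ubiquitin ligase of receptor recycling, fell with Adgre1 without (-0.097 ± 0.014) and rose with Y chromosome counts (0.042 ± 0.0074), a difference of 0.14. Pex16, which inserts membrane proteins, did so too (-0.16 ± 0.026 and 0.045 ± 0.018, a difference of 0.20).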

How the results depend on the processing

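Each of the 30 genes was compared once under each alternative, so a gene can be counted more than once. Most of these values kept their direction and their side of the threshold. Of them, 9 on Ucp1, 4 on Pparg and 12 on Adgre1 turned, and 24, 24 and 6 lost their call. DESeq2, another scaling, limma, the rank of the marker, both numbers as covariates and leaving out shallow libraries turned no direction of a called gene. Where a value turned, the cause was not tested.

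Without the cluster indicator the slope of Agps turned to -0.025 on Ucp1 and -0.014 on Pparg. With the other markers added, Pxmp4 turned to -0.021 on Ucp1 and did not pass. In libraries with Y chromosome counts alone, the slopes on Ucp1 were -0.0063 for Pex26, -0.035 for Pex3, -0.042 for Decr2, -0.098 for Crot, -0.0084 for Gnpat, -0.0010 for Cat and -0.028 for Pxmp4, Acox3 had -0.014 on Pparg, and Pex2 and Pex16 had 0.042 and 0.045 on Adgre1. Of the slopes in those libraries, the ones of Crot, Pex2 and Pex16 passed and the others did not. The SE on Ucp1 was 0.026 for Gnpat and 0.031 for Cat. In libraries without, Crot had 0.076 on Pparg, which passed, and Abcd2 0.010 on Adgre1, which did not. With the adipocyte score added, Pxmp2 had -0.052 on Pparg, and on Adgre1 Pex7 had 0.0047, Pex13 0.0024, Pex16 0.049, Pex19 0.027, Hsd17b4 0.031, Gnpat 0.039, Cat 0.030, Abcd2 0.059 and Pxmp4 0.032. Of the slopes in that fit, the ones of Pxmp2, Pex7, Pex13 and Cat did not pass.

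Counts that moved by over 1.5 times were as follows. With Ucp1, 7 of the 30 genes rose in libraries with Y chromosome counts, where 2194 of all genes rose and 1451 fell, and 2 fell without the cluster indicator, with the other markers or with the adipocyte score. With Pparg, 1 fell in either cluster alone, without the indicator and with limma on log2 CPM or on VST values. With Adgre1, 8 rose and 14 fell with the adipocyte score, and 1 rose in libraries without and 4 in libraries with Y chromosome counts. Without the indicator 2219 of all genes and 0 of the 30 rose with mouse number, and 4 of the 30 fell. With library number, 37 of all genes fell by DESeq2, 60 rose and 82 fell without the filter on low counts, 0 rose and 0 fell by limma on log2 CPM or VST values, and 5 fell without the shallowest 10% of libraries; 0 of the 30 genes fell by limma, without the indicator and without those libraries. By edgeR at an unadjusted p under 0.05, 819 of all genes rose and 1109 fell with library number.

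The median r between biogenesis factors and enzymes moved to 0.467 with the cluster means left in. VST values moved none of the correlations with the markers by more than 0.073, and the sign turned in 1; leaving out the 2 farthest libraries moved none by more than 0.107 and turned 2, Acox3 and Pex26 with Pparg in libraries with Y chromosome counts.

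No paired analysis was possible because each mouse gave 1 library and there is 1 group. Depth set no limit for the 30 genes, whose lowest level was 1.92 CPM. For Ucp1, counts as low as 4 limit the precision of the marker itself in libraries with Y chromosome counts.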

Other observations

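Libraries without Y chromosome counts spanned more of the range of Ucp1 than the others, whose highest value was 85.7 CPM. Among the 59 libraries without Y chromosome counts at or below that level, the median r of the 30 genes with Ucp1 was 0.196, and it was 0.440 among those above it and 0.048 in the libraries with Y chromosome counts. A positive r was seen in 29, 27 and 19 genes, in the same order. Ech1 had r = 0.380 below and 0.855 above that level, Abcd3 had 0.222 and 0.783, and Far1 had 0.065 and -0.467. Abcd2 had 0.234 and -0.210. This split was chosen after the values were seen, and no test was made.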
